A study of Mus musculus with 4 samples.

Results

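The genes described here are 10 members of the MHC class II antigen presentation pathway, taken by symbol from an RNA-seq table of 22474 genes: the classical chains H2-Aa, H2-Ab1 and H2-Eb1, the invariant chain Cd74, the DM genes H2-DMa, H2-DMb1 and H2-DMb2, the DO genes H2-Oa and H2-Ob, and the transactivator Ciita. All 10 symbols were found in each of the 4 libraries. They were measured in spleen cells of mice on a C57BL/6 background, with 1 library per group. KO CD44hi and WT CD44hi were sorted as CD4+ T cells with high CD44, the antigen-experienced fraction, from Ezh2fl/fl CD4-Cre mice and from wild-type mice. KO iNKT and WT iNKT were sorted as invariant natural killer T cells, which recognise lipids on CD1d, from the same 2 genotypes. Ezh2 encodes a histone methyltransferase, the enzyme of the PRC2 Polycomb complex, and the Cd4-driven Cre is used to delete its floxed part in developing T cells. Sorting relied on T cell receptor beta with PBS-57-loaded CD1d tetramers for iNKT cells, and on T cell receptor beta, CD44 and CD4 for CD44hi cells. The labels give no age or sex, do not say how many mice went into a library, and name no antibody that would remove cells carrying class II.

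Class II molecules are heterodimers of an alpha and a beta chain that show peptides from endocytosed proteins to CD4+ T cells. The invariant chain guides new heterodimers to endosomes, where DM exchanges its remnant for peptide and DO restrains DM. Ciita is the coactivator that assembles on class II promoters, where the factors RFX, CREB and NF-Y bind a conserved X box and Y box. In the spleen the pathway is known from B cells, dendritic cells (DC) and macrophages, and mouse T cells are known to transcribe little of it. C57BL/6 mice carry the H-2b haplotype, which lacks a working E alpha gene, so that the beta chain of H2-Eb1 has no partner at the surface.

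The promoters below are shown as background on the X box and Y box described above. Whether these boxes bear on the levels of the members was not tested. Each stretch is 100 bases, read 5′ to 3′ on the gene's own strand of chromosome 17 (RefSeq, build GRCm38.p6), and is placed so that the Y box core TGATTGG starts at base 61. Capitals mark that core, the X box core GCAAC where it stands 20 to 45 bases before it, and the letters GATGATG at the end of some X boxes.
H2-Aa (chr17:34287834-34287933, minus strand): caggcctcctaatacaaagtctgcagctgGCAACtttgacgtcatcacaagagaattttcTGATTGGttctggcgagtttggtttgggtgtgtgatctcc
H2-Eb1 (chr17:34305746-34305845, plus strand): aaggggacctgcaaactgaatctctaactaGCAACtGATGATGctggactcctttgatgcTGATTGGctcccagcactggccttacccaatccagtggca
H2-Oa (chr17:34092274-34092373, plus strand): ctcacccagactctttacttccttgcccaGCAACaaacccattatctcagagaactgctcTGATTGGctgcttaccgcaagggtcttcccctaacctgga
H2-Ob (chr17:34238786-34238885, plus strand): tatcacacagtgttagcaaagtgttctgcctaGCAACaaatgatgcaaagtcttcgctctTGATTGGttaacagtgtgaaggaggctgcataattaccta
H2-DMb1 (chr17:34153068-34153167, plus strand): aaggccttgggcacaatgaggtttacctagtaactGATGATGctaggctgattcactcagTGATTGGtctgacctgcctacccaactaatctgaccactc
H2-DMb2 (chr17:34145097-34145196, plus strand): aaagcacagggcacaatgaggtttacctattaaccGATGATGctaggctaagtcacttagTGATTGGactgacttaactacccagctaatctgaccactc

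Promoter windows of 300 bases were listed for 7 of the 10 members. The Y box core was found on the gene's own strand in 6 of these 7, all but H2-DMa, and on either strand in 7.82% of 32851 mouse promoter windows. The X box core, searched alone on both strands, occurred in 35.2% of the windows, and GATGATG in 3.48%. An X core set 20 to 45 bases before a Y core on the gene's own strand was found in H2-Aa, H2-Eb1, H2-Oa and H2-Ob and in 0.137% of all windows. The first bases of the 2 cores lay 31 bases apart in H2-Aa and H2-Oa, 30 in H2-Eb1 and 28 in H2-Ob. H2-DMb1 and H2-DMb2 carried GATGATG and the Y core without those exact X core letters. The letters and the spacing were chosen with these promoters in view, and a match describes the sequence only.

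Cd3e, a CD3 chain gene of the T cell receptor complex, was similar in all libraries. It was at 329 FPKM in KO CD44hi, 308 in WT CD44hi, 307 in KO iNKT and 357 in WT iNKT. Other T cell genes were less even. Thy1 was at 432 FPKM in KO CD44hi, 537 in WT CD44hi, 82.7 in KO iNKT and 449 in WT iNKT. Of 14 T cell identity genes, 7 lay higher and 7 lower in KO iNKT than in WT iNKT. FPKM is a fragment count scaled by transcript length and by library size. Zbtb16, the transcription factor of the iNKT lineage, was at 41.4 FPKM in KO CD44hi, 4.30 in WT CD44hi, 63.1 in KO iNKT and 28.2 in WT iNKT. Ezh2 was at 18.5 FPKM in KO CD44hi, 28.9 in WT CD44hi, 16.8 in KO iNKT and 15.3 in WT iNKT; a value over the whole gene does not check a deletion of some exons, so KO means a library labelled KO. Steps between low FPKM values gave an estimated 23500000 fragments in KO CD44hi, 17600000 in WT CD44hi, 5200000 in KO iNKT and 4800000 in WT iNKT. Depth and cell type cannot be told apart here, since both CD44hi libraries were the deeper ones. The Y-linked gene Eif2s3y was at 22.7 FPKM in WT CD44hi and listed at 0 in the other 3 libraries. Xist, transcribed from the inactive X, was at 80.0 FPKM in KO CD44hi, 46.8 in WT CD44hi, 76.8 in KO iNKT and 55.3 in WT iNKT. Y-linked transcripts thus differ between the CD44hi libraries together with genotype, and their part in the KO to WT values was not tested.

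Class II transcripts were abundant in both CD44hi libraries and scarce in both iNKT libraries. The 10 members together held 4722 FPKM in KO CD44hi, 3035 in WT CD44hi, 128 in KO iNKT and 50.4 in WT iNKT, which was 1.24%, 0.840%, 0.0342% and 0.0136% of the summed FPKM of these libraries. CD44hi was above iNKT for all 10 members in both genotypes, and the sum in KO lay above that in WT in both cell types. In bulk RNA, fewer cells of a type and less RNA per cell cannot be told apart. Here CD44hi cells and iNKT cells mean the sorted libraries, and which cells in them held the class II transcripts was not tested. With 1 library per group no difference below has a replicate check, and no test or p-value was computed.

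**Figure D1:**
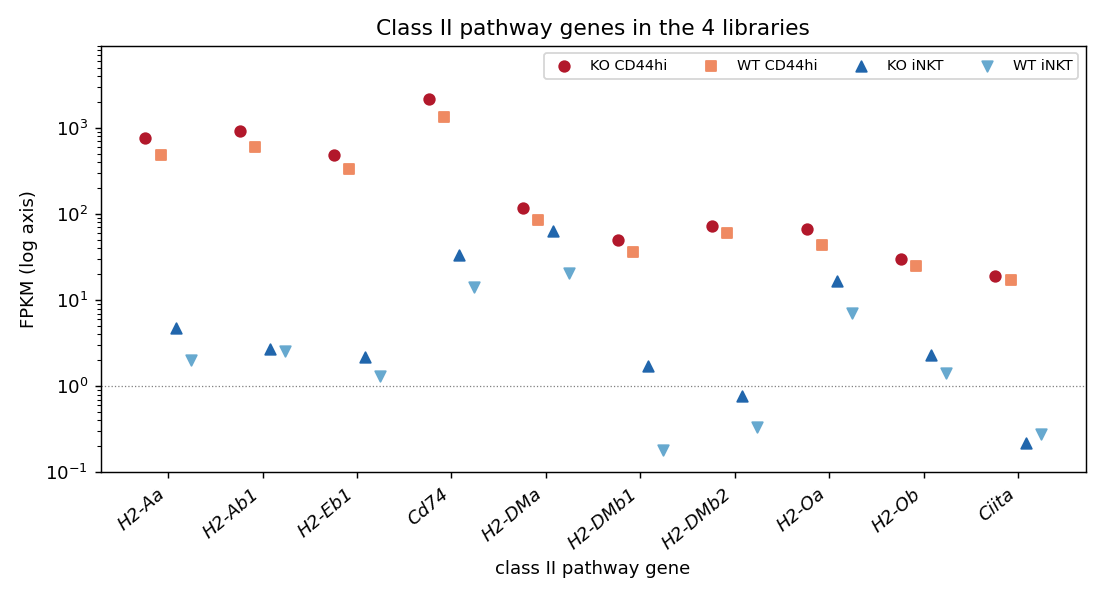
FPKM of each class II pathway gene (log axis) in KO CD44hi, WT CD44hi, KO iNKT and WT iNKT, 1 point per library. The classical chains and Cd74 lie above 300 FPKM in both CD44hi libraries and below 40 in both iNKT libraries, whereas H2-DMa and H2-Oa come closest across cell types; the dotted line marks 1 FPKM.

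Cd74, the invariant chain, was the most abundant member in CD44hi cells. It stood at 2171 FPKM in KO CD44hi, 1337 in WT CD44hi, 33.1 in KO iNKT and 14.4 in WT iNKT. Among all genes it ranked 7th highest in KO CD44hi and 14th in WT CD44hi, but 2205th in KO iNKT and 4741st in WT iNKT. H2-Ab1, the beta chain of the I-A heterodimer, was at 934 FPKM in KO CD44hi, 605 in WT CD44hi, 2.72 in KO iNKT and 2.54 in WT iNKT. H2-Aa, its alpha chain, was at 770 FPKM in KO CD44hi, 493 in WT CD44hi, 4.76 in KO iNKT and 2.01 in WT iNKT. The 2 chains of one heterodimer were thus at like levels in CD44hi cells, with H2-Aa at 82.4% of H2-Ab1 in KO CD44hi and 81.4% in WT CD44hi.

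H2-Eb1, the beta chain of I-E, was transcribed without its alpha partner. It had 489 FPKM in KO CD44hi, 331 in WT CD44hi, 2.20 in KO iNKT and 1.32 in WT iNKT. The E alpha pseudogene of this strain, H2-Ea-ps, was at 0.205 FPKM in KO CD44hi, about 4.98 estimated fragments, and was listed at 0 in the other 3 libraries. H2-Eb2, a further beta gene next to H2-Eb1, followed the CD44hi pattern at a lower level, with 13.6 FPKM in KO CD44hi, 10.6 in WT CD44hi, 1.64 in KO iNKT and 0 in WT iNKT. The listed 0 of H2-Eb2 in WT iNKT allows up to 3 fragments, which would be 0.186 FPKM.

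The peptide editors were less abundant than the classical chains in CD44hi cells. H2-DMa, the DM alpha chain, was at 118 FPKM in KO CD44hi, 84.6 in WT CD44hi, 63.9 in KO iNKT and 20.8 in WT iNKT. H2-DMb2, a DM beta chain, was at 73.4 FPKM in KO CD44hi, 61.1 in WT CD44hi, 0.769 in KO iNKT and 0.3325 in WT iNKT. H2-DMb1, the other DM beta chain, was at 50.2 FPKM in KO CD44hi, 36.8 in WT CD44hi, 1.74 in KO iNKT and 0.179 in WT iNKT. The DM beta genes are near copies: over 1255 aligned transcript bases 93.9% were identical, and 27.2% of the 50-base words of H2-DMb1 occurred in H2-DMb2, so the split of reads between them is uncertain. Their sum was 124 FPKM in KO CD44hi, 97.9 in WT CD44hi, 2.51 in KO iNKT and 0.512 in WT iNKT, against which H2-DMa was present without a matching beta level in iNKT cells.

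DO, the modulator of DM, showed the same imbalance between its chains. H2-Oa, the alpha chain, was at 67.3 FPKM in KO CD44hi, 44.1 in WT CD44hi, 16.5 in KO iNKT and 7.07 in WT iNKT. H2-Ob, the beta chain, was at 29.7 FPKM in KO CD44hi, 24.9 in WT CD44hi, 2.32 in KO iNKT and 1.41 in WT iNKT. Per unit of H2-Ob, H2-Oa was thus 2.26 in KO CD44hi and 1.77 in WT CD44hi, but 7.09 in KO iNKT and 5.01 in WT iNKT. Ciita, the transactivator, was lowest of the members in CD44hi cells, at 19.2 FPKM in KO CD44hi and 16.9 in WT CD44hi, and stood at 0.220 FPKM in KO iNKT and 0.277 in WT iNKT. The iNKT values of Ciita rest on about 6.85 estimated fragments in KO iNKT and 7.93 in WT iNKT.

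The mix of members differed more between the cell types than between genotypes. In CD44hi cells Cd74 made up 46.0% of the summed member FPKM in KO CD44hi and 44.1% in WT CD44hi, and H2-DMa made up 2.50% and 2.79%. In iNKT cells H2-DMa led, with 49.9% in KO iNKT and 41.3% in WT iNKT, ahead of Cd74 with 25.8% in KO iNKT and 28.6% in WT iNKT. H2-Oa came next in both iNKT libraries, at 12.9% in KO iNKT and 14.1% in WT iNKT, and seventh in both CD44hi libraries. The order of the 10 members was identical in KO CD44hi and WT CD44hi: Cd74, H2-Ab1, H2-Aa, H2-Eb1, H2-DMa, H2-DMb2, H2-Oa, H2-DMb1, H2-Ob and Ciita. In the iNKT libraries the members below the first 3 were all under 5 FPKM and their order differed between genotypes.

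**Figure D2:**
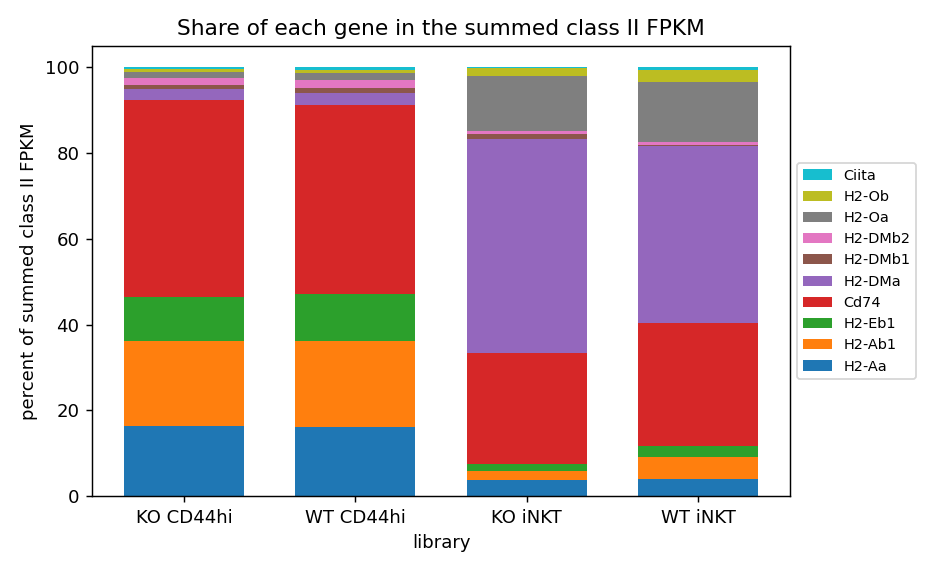
Percent of the summed class II FPKM held by each gene in KO CD44hi, WT CD44hi, KO iNKT and WT iNKT, 1 stacked bar per library. Cd74 with H2-Ab1, H2-Aa and H2-Eb1 fills most of both CD44hi bars, while H2-DMa (49.9% in KO iNKT, 41.3% in WT iNKT) and H2-Oa take most of both iNKT bars.

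CD44hi cells were compared with iNKT cells within each genotype. A gene counted as measured where either library of the pair reached 1 FPKM, and was called at a 2-fold difference on the log2(FPKM + 1) scale, which understates the differences of low genes. In WT, all 10 members were called higher in CD44hi cells, where 10.9% of the 11217 measured genes were. In KO, 9 of 10 were called higher, where 9.07% of 11470 measured genes were, with 0 lower in either genotype, against 3.64% in WT and 3.02% in KO. The median log2 difference over the 10 members was 4.81 in KO and 5.27 in WT, against 0.02 and 0.06 over all measured genes. Both comparisons rest on libraries that also enter the KO to WT comparisons, so the values are not independent of them.

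Plain ratios of FPKM ranged widely among the members. H2-Ab1 was 344-fold higher in KO CD44hi than in KO iNKT (95% exact counting interval 216 to 593) and 238-fold higher in WT CD44hi than in WT iNKT (141 to 416). Cd74 was 65.7-fold higher in KO (57.8 to 74.7) and 92.9-fold higher in WT (75.9 to 114). H2-Oa differed less, at 4.08-fold in KO (3.31 to 5.09) and 6.23-fold in WT (4.44 to 8.83). H2-DMa, the DM alpha chain, had the smallest ratios, 1.85 in KO (1.69 to 2.02), which was not called, and 4.07 in WT (3.48 to 4.80). The intervals of H2-DMa and H2-Oa lay below those of the 3 classical chains and Cd74 in both genotypes. These intervals come from estimated fragments and hold counting error alone, with nothing for mice or sorts.

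In the gene spans of the GENCODE M21 annotation, genes on the other strand overlap H2-DMa, H2-Oa, Ciita and H2-Eb1. Their reads could be mixed, because the TruSeq v2 kit does not mark strand. Brd2, a bromodomain gene on the other strand, overlaps H2-DMa over 3094 bases of these spans, which include introns. The H2-DMa starts of the RefSeq promoter windows lie beyond the GENCODE end of Brd2, so the overlap depends on the annotation. Brd2 was at 112 FPKM in KO CD44hi, 122 in WT CD44hi, 119 in KO iNKT and 77.0 in WT iNKT. Reads from the 2 genes cannot be told apart where they overlap, and the part of Brd2 in the H2-DMa values was not tested. The antisense gene of H2-Oa, BC051537, was at 1.30 FPKM or less in every library. Dexi overlaps Ciita, and Ciita itself was below 0.3 FPKM in both iNKT libraries.

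**Figure D3:**
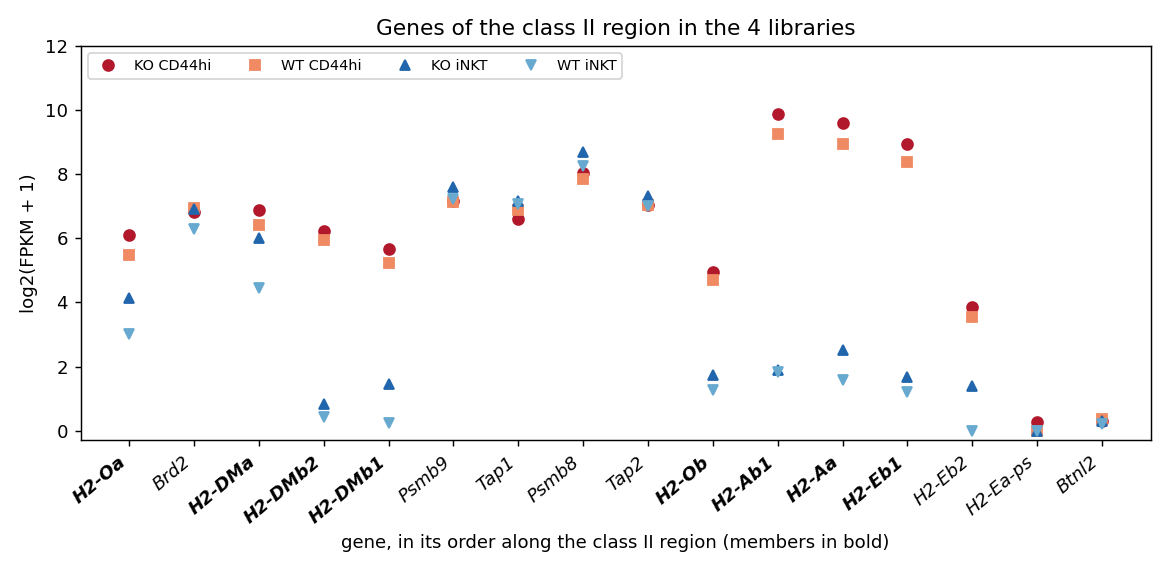
Level of each gene, as log2(FPKM + 1), in its order along the class II region of chromosome 17, for KO CD44hi, WT CD44hi, KO iNKT and WT iNKT; class II members are in bold. The block from Psmb9 to Tap2 is high in every library, while H2-DMb2, H2-DMb1 and the genes from H2-Ob to H2-Eb2 are high in the CD44hi libraries alone.

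Along the region, the class I processing genes that lie between H2-DMb1 and H2-Ob did not share the cell type pattern. Psmb8, an immunoproteasome subunit, was at 263 FPKM in KO CD44hi, 230 in WT CD44hi, 414 in KO iNKT and 307 in WT iNKT. Tap1, a subunit of the peptide transporter, was at 95.2 FPKM in KO CD44hi, 116 in WT CD44hi, 141 in KO iNKT and 134 in WT iNKT. Neither passed 2-fold in any of the 4 comparisons. Of the 8 other listed genes of the region, 6 were measured in each cell type comparison and H2-Eb2 was the 1 called, higher in CD44hi in both genotypes. Of all measured genes 9.07% were called higher in KO and 10.9% in WT.

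The next comparison, KO CD44hi over WT CD44hi, asked whether the members differ by genotype in the cells sorted as CD44hi CD4+ T cells. The value in KO CD44hi lay above that in WT CD44hi for all 10 members, by ratios of 1.14 to 1.62, and 0 of 10 were called, where 2.44% of 11353 measured genes were called higher and 1.14% lower. Cd74 had the largest ratio, 1.62 (interval 1.60 to 1.64). H2-Aa followed with 1.56 (1.52 to 1.60), H2-Ab1 with 1.54 (1.51 to 1.58), H2-Oa with 1.53 (1.40 to 1.66) and H2-Eb1 with 1.48 (1.44 to 1.51). The DM alpha gene H2-DMa was at 1.40 (1.33 to 1.47) and the DM beta genes H2-DMb1 and H2-DMb2 at 1.37 (1.26 to 1.48) and 1.20 (1.13 to 1.28).

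The DO beta gene H2-Ob had a ratio of 1.20 (1.11 to 1.29), and Ciita had the smallest, 1.14 (1.07 to 1.21). The interval of Cd74 overlapped that of H2-Oa, met that of H2-Aa at the printed precision and lay above those of the other 7 members. All 10 counting intervals lay above 1, which also held for 29.3% of the 10273 measured genes with a known length. At a 1.5-fold rule 4 of the 10 were called higher, against 6.43% of measured genes. The median log2 difference was 0.52 over the 10 members and 0.01 over all measured genes.

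**Figure D4:**
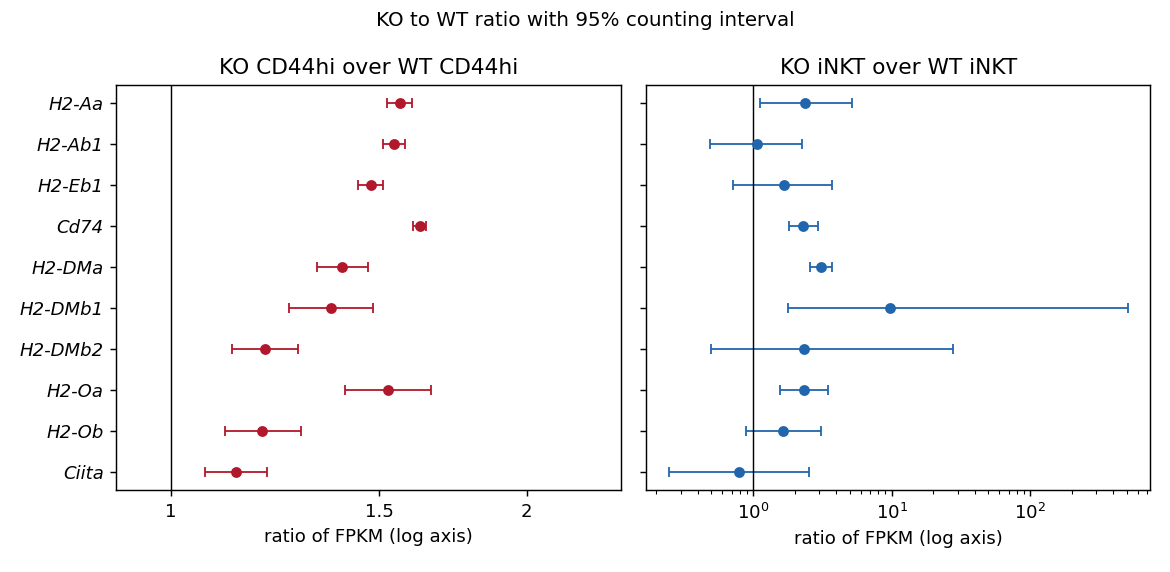
Ratio of FPKM in KO CD44hi over WT CD44hi (left) and in KO iNKT over WT iNKT (right) for each class II gene, on log axes of different range; points are the ratios of 1 library each and bars the 95% counting interval. On the left all 10 intervals lie between 1 and 2, and on the right those of Cd74, H2-DMa, H2-DMb1, H2-Oa and H2-Aa lie above 1.

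KO iNKT was set against WT iNKT for the same question in the cells sorted as iNKT. Of the 10 members, 8 were measured and 4 were called higher, where 6.08% of the 10817 measured genes were, with 0 called lower against 3.34%. The 2 members under 1 FPKM in both iNKT libraries were H2-DMb2 and Ciita. H2-DMa was 3.07-fold higher in KO iNKT (interval 2.58 to 3.69), the best counted of the 4, at 550 estimated fragments in KO iNKT and 164 in WT iNKT. H2-Oa was 2.33-fold higher (1.56 to 3.48), and Cd74 2.30-fold higher (1.80 to 2.93). H2-DMb1 was the fourth, at 1.74 FPKM in KO iNKT and 0.179 in WT iNKT, which is 12.7 and 1.20 estimated fragments, and its interval ran from 1.79 to 507.

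The classical chains did not pass the rule in iNKT cells. H2-Aa had a ratio of 2.36 (1.13 to 5.20), H2-Eb1 of 1.67 (0.717 to 3.69) and H2-Ab1 of 1.07 (0.489 to 2.24). For H2-Ob the ratio was 1.65 (0.889 to 3.09) and for Ciita 0.793 (0.248 to 2.54). At these low levels a difference in the chains, H2-Ob or Ciita was not detectable beyond counting error, save for H2-Aa. In all, 5 of the 10 counting intervals lay above 1, against 29.6% of measured genes with a known length. At a 3-fold rule 0 members were called higher (2.15% of measured genes), and with a pseudocount of 5 in place of 1 H2-DMa alone was (1.83%). The median log2 difference was 0.70 over all 10 members and 1.02 over the 8 measured, against 0.05 over all measured genes. Brd2, which overlaps H2-DMa in the GENCODE spans, had a ratio of 1.54 in the same pair (1.45 to 1.64).

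The genotype difference of each member was also set beside itself across cell types, a difference of differences that was not tested with 1 library per group. On the log2(FPKM + 1) scale H2-DMa differed most, with 0.48 for KO minus WT in CD44hi and 1.58 in iNKT, a gap of -1.10. H2-Ab1 went the other way, with 0.63 in CD44hi and 0.07 in iNKT, a gap of 0.56. The median gap over the 10 members was -0.25, and its sign depended on the pseudocount: it was -0.53 with 0.1 and 0.08 with 5. With a pseudocount of 5 the gaps of H2-Aa, H2-DMb1, H2-DMb2 and H2-Ob turned from negative to positive, and with 0.1 that of H2-Eb1 turned negative.

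B cell markers were present in the CD44hi libraries and mostly under 1 FPKM in the iNKT libraries, whereas part of the DC and macrophage lists was found in both cell types. Of 19 B cell markers in the files, 18 were at 1 FPKM or more in KO CD44hi, 18 in WT CD44hi, 2 in KO iNKT and 1 in WT iNKT, with sums of 242, 139, 14.1 and 9.95 FPKM. Cd79a, a signalling chain of the B cell receptor, was at 30.1 FPKM in KO CD44hi, 15.3 in WT CD44hi, 0.319 in KO iNKT and 0.517 in WT iNKT. Of the 19 markers, 7 were listed at 0 in KO iNKT and 9 in WT iNKT. Fcer2a, Cr2, Pax5, Ebf1, Fcrla and Blnk were listed at 0 in both. Cd79b, Cd22, Blk, Bank1, Cd24a and Ly86 were above 0 and below 1 FPKM in both. Fcer2a, Cr2, Pax5 and Ebf1, which mark mature B cells or their lineage, were also low in CD44hi cells. The highest of them was Fcer2a in KO CD44hi, at 2.60 FPKM, and Pax5 in WT CD44hi, at 2.04. Ebf1 was at 0.561 FPKM in KO CD44hi and 0.566 in WT CD44hi. KO CD44hi against WT CD44hi, 4 of 18 measured B cell markers were called higher, Fcrla, Cd24a, Blnk and Ly86, and 0 lower, with a median of 0.62. In that pair 16 of the 18 lay higher in KO CD44hi and 2 lower, Cd22 (ratio 0.728) and Pou2af1 (0.659). Pax5 and Bank1 had ratios of 1.10 and 1.06. Over all measured genes of this pair 2.44% were called higher and 1.14% lower, the shares to set beside the counts of the following lists.

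Conventional DC markers had 17 of 18 at 1 FPKM or more in KO CD44hi and 17 in WT CD44hi, against 4 in KO iNKT and 5 in WT iNKT. Itgax, which encodes CD11c, was at 50.6 FPKM in KO CD44hi, 37.8 in WT CD44hi, 0 in KO iNKT and 0.329 in WT iNKT, and Flt3, the receptor that DC depend on, at 20.2, 11.8, 0.0519 and 0.168 FPKM in the same order. The list summed to 750 FPKM in KO CD44hi, 516 in WT CD44hi, 457 in KO iNKT and 1185 in WT iNKT. Most of each sum was Id2, which T cells also express, at 475 FPKM in KO CD44hi, 327 in WT CD44hi, 441 in KO iNKT and 1172 in WT iNKT. Between genotypes in CD44hi, 2 of 18 were called higher, Clec9a and Clec10a, and 1 lower, Itgae (median 0.42).

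Plasmacytoid DC markers stood further apart between the CD44hi libraries than the B cell or conventional DC lists. All 19 in the files were at 1 FPKM or more in both, and 14 of 19 were called higher in KO CD44hi and 0 lower (median 1.82), with sums of 1105 FPKM in KO CD44hi, 294 in WT CD44hi, 205 in KO iNKT and 335 in WT iNKT. Siglech, a lectin of these cells, was at 75.7 FPKM in KO CD44hi, 11.1 in WT CD44hi and 0 in both iNKT libraries. The ratio of Siglech between the CD44hi libraries was 6.80 (interval 6.15 to 7.55), beyond the 1.62 of Cd74 and every other class II member. Bst2 and Plac8, which are not restricted to these cells, made up most of both iNKT sums.

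Monocyte and macrophage markers were at 1 FPKM or more for 20 of 21 in KO CD44hi, 19 in WT CD44hi, 8 in KO iNKT and 11 in WT iNKT, with sums of 1234, 822, 262 and 364 FPKM. C1qa, a complement gene of macrophages, was at 50.5 FPKM in KO CD44hi, 47.3 in WT CD44hi, 1.63 in KO iNKT and 0.882 in WT iNKT. Between genotypes in CD44hi, 2 of 20 measured were called higher, Ly6c2 and Tyrobp, and 0 lower (median 0.10). T cell identity genes had a median of -0.28 in the same pair, with Cd4 at 252 FPKM in KO CD44hi and 405 in WT CD44hi.

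Red cell and platelet genes had 5 of 5 measured called higher in KO CD44hi (median 2.14), with sums of 727 FPKM in KO CD44hi and 151 in WT CD44hi, against 18.2 in KO iNKT and 19.2 in WT iNKT. Plasma cell markers had 2 of 7 higher, Igj and Tnfrsf17, and 1 lower, Prdm1. NK cell and ILC markers had 1 of 9 higher and 1 lower, and neutrophil markers 0 of 2 either way. The lists share 6 genes with one another or with the pathway lists. In the iNKT pair, 6.08% of all measured genes were called higher and 3.34% lower. There, 0 of 12 measured monocyte and macrophage markers were called higher and 3 lower (median -0.64). Of 7 measured conventional DC markers, 1 was called higher and 2 lower (median -0.45). Of 8 measured plasmacytoid DC markers 1 was called higher and 3 lower, and of 2 measured B cell markers Pou2af1 was called higher and 0 lower. The part of these cells in the class II values was not tested.

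**Figure D5:**
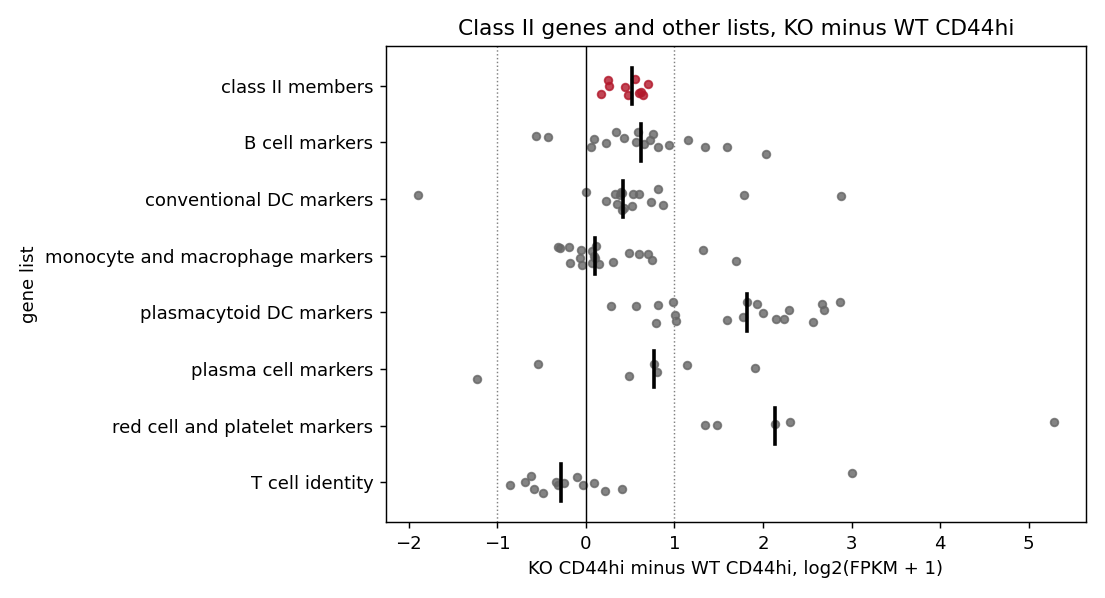
Difference KO CD44hi minus WT CD44hi on the log2(FPKM + 1) scale for every measured gene of the class II members (red), of 6 lists of markers of other cells and of the T cell identity list (grey); black bars are medians and dotted lines the 2-fold rule. The class II genes lie between 0.17 and 0.70. The list medians are 0.62 for B cell, 0.42 for conventional DC and 0.10 for monocyte and macrophage markers. They are 1.82 for plasmacytoid DC, 0.77 for plasma cell and 2.14 for red cell and platelet markers, and -0.28 for T cell identity.

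Class II was also set against the marker sums, which a few genes can carry. The summed member FPKM per summed B cell marker FPKM was 19.5 in KO CD44hi and 21.8 in WT CD44hi, per conventional DC marker 6.29 and 5.89, and per monocyte and macrophage marker 3.83 and 3.69. Without Tyrobp and Ly6c2, left out after their values were seen, the ratio per monocyte and macrophage marker was 6.15 in KO CD44hi and 4.66 in WT CD44hi. Without Id2, likewise, the ratio per conventional DC marker was 17.2 in KO CD44hi and 16.1 in WT CD44hi. Per plasmacytoid DC marker it was 4.27 in KO CD44hi and 10.3 in WT CD44hi. In iNKT cells the same ratios were 9.11 in KO iNKT and 5.06 in WT iNKT for B cell markers, 0.280 and 0.0425 for conventional DC markers, 0.489 and 0.138 for monocyte and macrophage markers, and 0.625 and 0.150 for plasmacytoid DC markers. Without Id2 the ratio per conventional DC marker was 7.92 in KO iNKT and 3.83 in WT iNKT. Without Tyrobp and Ly6c2 that per monocyte and macrophage marker was 1.38 in KO iNKT and 0.615 in WT iNKT. Much of the iNKT B cell sums was Ralgps2, at 6.94 FPKM in KO iNKT and 5.76 in WT iNKT. Ralgps2 was no higher in CD44hi cells, at 6.90 in KO CD44hi and 5.76 in WT CD44hi.

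The factors that build the class II enhanceosome were above 1 FPKM in all 4 libraries, unlike Ciita. Rfx5, the DNA-binding RFX subunit, was at 17.5 FPKM in KO CD44hi, 13.4 in WT CD44hi, 15.0 in KO iNKT and 13.7 in WT iNKT. Of 14 listed enhanceosome genes and regulators of Ciita, Irf8 and Spib were called higher and Prdm1 lower in KO CD44hi, and Pou2af1 higher and Prdm1 lower in KO iNKT. Over all measured genes 2.44% were called higher and 1.14% lower in the CD44hi pair, and 6.08% and 3.34% in the iNKT pair. Prdm1, the repressor of Ciita in plasma cells, was at 2.10 FPKM in KO CD44hi, 6.27 in WT CD44hi, 1.74 in KO iNKT and 12.4 in WT iNKT. Pou2af1, a coactivator of B cells, was at 4.09 FPKM in KO iNKT and 0.737 in WT iNKT, and at 10.7 in KO CD44hi and 16.3 in WT CD44hi. Irf8 and Spib, which also mark plasmacytoid DC, were at 105 and 32.5 FPKM in KO CD44hi, and at 22.9 and 7.77 in WT CD44hi.

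Irf1, an interferon-induced transcription factor that acts on Ciita, was at 161 FPKM in KO CD44hi, 143 in WT CD44hi, 148 in KO iNKT and 164 in WT iNKT, and was not called in any of the 4 comparisons.

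Endolysosomal genes that process antigen and the invariant chain split by cell type. In both genotypes 7 of 9 were called higher in CD44hi than in iNKT cells and 0 lower: Ctss, Ctsh, Ctsl, Ctsz, Lgmn, Ifi30 and Cst3. Of all measured genes 9.07% were called higher in KO and 10.9% in WT. Ctss, cathepsin S, which trims the invariant chain in B cells and DC, was at 227 FPKM in KO CD44hi, 211 in WT CD44hi, 72.2 in KO iNKT and 45.7 in WT iNKT. Ifi30, the thiol reductase of antigen processing, was at 170 FPKM in KO CD44hi, 136 in WT CD44hi, 34.5 in KO iNKT and 20.1 in WT iNKT. Between genotypes in CD44hi cells, 2 of 9 were called higher, where 2.44% of measured genes were: Ctsl at 47.9 FPKM in KO CD44hi and 8.08 in WT CD44hi, and Ctsh at 76.1 and 34.3. In iNKT cells 0 of 8 measured were called either way, where 6.08% of measured genes were called higher and 3.34% lower.

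The genes whose profile over the 4 libraries lay closest to the mean profile of H2-Aa, H2-Ab1, H2-Eb1 and Cd74 were Hbb-b1, Ly6d, Ctsh, Itgax, Pld4, Igj, Plbd1, Il1b, Tyrobp and Napsa, of 4278 genes at 20 FPKM or more in a library. Likeness was the root mean square difference of centred log2(FPKM + 1) values over 4 libraries, from 0.77 for Hbb-b1 to 1.22 for Napsa. Hbb-b1 has a near copy, Hbb-b2, at 0.000164 FPKM in KO CD44hi, 0.000127 in WT CD44hi, 4.92 in KO iNKT and 2.62 in WT iNKT, so the split of reads between them is uncertain. Summed, the pair stood at 1.64, with 40 other genes closer. Among the members themselves H2-Eb1 and H2-Aa stood at 0.10 and 0.12, having helped to make the profile, while H2-DMa stood at 2.85 and H2-Oa at 2.44. Pld4 was at 115 FPKM in KO CD44hi, 44.2 in WT CD44hi, 0.606 in KO iNKT and 1.09 in WT iNKT. With 4 libraries such closeness describes these samples and says nothing of shared function.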

How the data were processed

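Each library came as a table of symbols and FPKM values that the authors deposited, per the file headers. Cufflinks 2.0.2, Bowtie2 2.0.0, TopHat 1.3.2 and mm10 are named, without roles, per the submitters' processing notes; gene annotation, filters and strand setting are not given in the sources used here. Per the labels' protocols, TruSeq RNA v2 libraries followed TRIzol and Picopure isolation. Rows sharing a symbol (240 symbols) were summed, and 26 rows of the CD44hi files whose symbol had become a date or number and 784 small RNA symbols were left out.

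Fragment numbers were inferred from the spacing of low FPKM values among single-transcript genes of at least 2000 bases, with GENCODE M21 lengths (known for 90.3% of 11716 genes reaching 1 FPKM somewhere). In a 2 kilobase transcript, 1 fragment is worth 0.0213 FPKM in KO CD44hi, 0.0284 in WT CD44hi, 0.0964 in KO iNKT and 0.105 in WT iNKT. Ratios carry exact Clopper-Pearson 95% intervals for counting error only. Differences are of log2(FPKM + 1), computed here; a gene was measured at 1 FPKM in either library and called at 2-fold. No test was possible with 1 library per group. FPKM of all members is given in every library. Ratios of CD44hi over iNKT are printed for H2-Ab1, Cd74, H2-Oa and H2-DMa, and the H2-DMb2 ratio of the iNKT pair is not printed in the text. From each list up to 4 genes highest in any library were to be named; called genes, defining markers and a few others were named after their values were seen. Genes most like the classical chains and Cd74 were the 10 closest, without predicted, small RNA or receptor segment genes. The members and lists were chosen with earlier results of these data known. Promoters were taken from RefSeq (GRCm38.p6). Calls and step estimation were tested on simulated data, with changes larger than the 2-fold rule and placed in better expressed genes only. Calls near 2-fold and calls of the low iNKT members were not covered. Python 3.11.15, pandas 2.3.3, scipy 1.17.1 and Biopython 1.88 were used.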

Additional observations from a re-analysis of the deposited data

Results flagged for a closer look

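Among the genes named, Plac8 and Tyrobp were called in opposite directions between KO and WT in the 2 cell types, a difference that was not tested. Plac8 was at 146 FPKM in KO CD44hi and 42.0 in WT CD44hi, but at 60.1 in KO iNKT and 155 in WT iNKT, so that its genotype effects on the log2(FPKM + 1) scale differed by 3.13. Tyrobp, which encodes the signalling adaptor DAP12, had 305 FPKM in KO CD44hi and 121 in WT CD44hi, and 1.98 in KO iNKT and 6.95 in WT iNKT, a difference of effects of 2.74. No class II member could be called in opposite directions, because 0 of the 10 were called between the CD44hi libraries.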

How the results depend on the processing

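The direction of a called member could not reverse under the pseudocounts and scalings tried, so its staying the same is no check. A pseudocount keeps the sign of a difference, and the scalings moved the libraries too little to turn a 2-fold call. The gap between the genotype differences of the cell types did turn: its median was -0.25, but 0.08 with a pseudocount of 5, where 4 of 10 members changed sign; with 0.1 (-0.53) or one common sum (-0.51), 1 did. At a 1.5-fold rule 4 members were called higher in KO CD44hi than in WT CD44hi, where 6.43% of measured genes were. In the iNKT pair 1 member, H2-DMa, was called higher with a pseudocount of 5 (1.83% of measured genes) and 0 at 3-fold (2.15%), while H2-Aa passed 2-fold with a pseudocount of 0.1 or after rescaling each library to one common sum, as TPM does. The median of CD44hi minus iNKT was 5.98 (KO) and 6.79 (WT) with a pseudocount of 0.1, 3.40 and 3.32 with 5, and 6.30 in WT after that rescaling; the pseudocount sets how far low values are shrunk. The rescaling put the summed members at 12430 in KO CD44hi, 8396 in WT CD44hi, 342 in KO iNKT and 136 in WT iNKT. Without H2-DMb2, Cd74 held 46.7% in KO CD44hi and 44.97% in WT CD44hi. Without genes that stand in another list, the members per B cell marker were 20.4 in KO CD44hi, 24.7 in WT CD44hi and 12.8 in KO iNKT, per plasmacytoid DC marker 4.88 in KO CD44hi and 11.5 in WT CD44hi, and per monocyte and macrophage marker 4.69, 4.97, 0.674 and 0.158 in KO CD44hi, WT CD44hi, KO iNKT and WT iNKT. In alternatives chosen after seeing the data, and in the same order of libraries, the members per monocyte and macrophage marker were 6.15, 4.66, 1.38 and 0.615 without Tyrobp and Ly6c2, and per conventional DC marker 17.2, 16.1, 7.92 and 3.83 without Id2. The other 97 values stayed within counting error or within 1.5 times the count. No paired analysis was possible because each group is 1 library. The iNKT depth limits statements on Ciita, H2-DMb2 and the classical chains.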

Other observations

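Genes of class II turnover and costimulation, a list that also holds Cd274 and Pdcd1lg2, were mostly higher in CD44hi than in iNKT cells. In KO 5 of 7 listed genes were called higher, where 9.07% of measured genes were, and in WT 4 of 7, where 10.9% were. Cd80 and Cd40 were listed at 0 in both iNKT libraries and were at 5.71 and 6.03 FPKM in KO CD44hi and at 4.95 and 5.17 in WT CD44hi. Cd86 was at 6.35 FPKM in KO CD44hi, 6.11 in WT CD44hi, 0.920 in KO iNKT and 0.580 in WT iNKT. Of the 7 listed genes, 0 were called between the CD44hi genotypes, where 2.44% of measured genes were called higher and 1.14% lower. Cd83, which stabilises class II at the surface, was the 1 called higher of 4 measured in the iNKT pair, where 6.08% of measured genes were. Cd83 was at 6.09 FPKM in KO iNKT and 0.997 in WT iNKT, with 30.1 in KO CD44hi and 42.2 in WT CD44hi. Cd274, the ligand of PD-1, was at 27.5 FPKM in KO CD44hi, 27.4 in WT CD44hi, 37.6 in KO iNKT and 23.4 in WT iNKT.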
